A study of Mus musculus with 2 samples.

Results

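The genes described here encode the major folding machines of the cell: the Hsp70 family with its Hsp110 relatives, the Hsp90 family, the DnaJ (J-domain) proteins, the mitochondrial chaperonin and its lid, and the cytosolic chaperonin TRiC. Members were the genes with at least 1 transcript annotated protein coding whose symbol begins with Hspa, Hsp90 or Dnaj, is Cct followed by a digit, or is Hspd1, Hspe1, Hsph1 or Tcp1. This gave 73 genes of the 55536 in the gene table: 14 of the Hsp70 and Hsp110 group, 3 of Hsp90, 4 of DnaJ class A, 13 of class B, 28 of class C, 9 of TRiC, and Hspd1 and Hspe1 (2). Their levels come from total RNA sequencing of gastrocnemius, a calf muscle of mixed fibre types, in a single group of 2 libraries called replicate 2 and replicate 1. The animals were female B6Cast F1 mice (strain B6CASTF1/J, from The Jackson Laboratory), offspring of a cross between C57BL/6J and CAST/EiJ, and no treatment or engineered allele is given in the labels. Their age is 18 to 20 months per the sample description. Each library was made from 300 ng of RNA with ERCC spike-ins, synthetic RNAs added in known amounts. The tissue sample identifiers differ between the libraries while the donor identifier is the same, so the spread between them may be partly technical.

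Hsp70 proteins bind short hydrophobic stretches of unfolded chains in a cycle driven by ATP. J-domain proteins bring them substrates and start ATP hydrolysis, and Hsp110 proteins release the nucleotide again. Hsp90 acts later on near-native clients such as kinases, steroid receptors and, in muscle, myosin, while the ring-shaped chaperonins enclose chains such as actin and tubulin (TRiC) or mitochondrial proteins (Hsp60). Heat and other protein damage activate the transcription factor HSF1, which binds heat shock elements upstream of the inducible members.

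With 1 group and no younger or otherwise different mice analysed here, no comparison between conditions can be made. The data give the level of each member in aged muscle and how far it differed between the libraries. Levels are TPM (counts scaled by transcript length and then to a fixed total per library) from the deposited gene table, written as mean ± SD of the libraries (n = 2) or as both values. Differences are log2 ratios of replicate 2 over replicate 1 after TMM scaling, over genes with at least 50 counts in both libraries together. Fold intervals are 95% exact binomial intervals and cover counting error only. A comparison of 1 library with 1 library has no replicate check and allows no test, so no p-value is given. Expected counts over all rows summed to 43918877 in replicate 2 and 38819119 in replicate 1.

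Markers of the labelled tissue were present: all 8 genes of a muscle fibre list were detected, among them the actin Acta1 at 23051 TPM in replicate 2 and 21825 TPM in replicate 1. The libraries differed in fibre-type markers. All 9 genes of a slow-fibre list were at least 2-fold higher in replicate 2 under each of the 4 scalings and with kallisto counts, with a summed level of 2395 TPM in replicate 2 and 466 TPM in replicate 1. All 14 nuclear genes of oxidative phosphorylation lay above 0 too, with a median log2 ratio of 0.52. Of 7 fibroblast markers, 4 were at least 2-fold higher in replicate 2, led by the collagens Col3a1 (37.3 and 12.5 TPM) and Col1a1 (28.3 and 9.69 TPM). The most abundant of the 7, Dcn, was the 1 below 0 (104.5 and 132.6 TPM, 0.878-fold), and Pdgfra was nearly level (1.07-fold, 0.975 to 1.17). Of 7 endothelial markers, 6 lay below 0 with a median of -0.65. The most abundant of these 7, Cdh5, was the 1 above 0 (14.7 and 14.3 TPM, 1.163-fold, 1.086 to 1.245). The next, Pecam1, was at 0.923-fold (0.853 to 0.999). In such bulk tissue, a different share of cells of a type and a different amount of RNA per cell cannot be told apart. The part of these marker differences in the values below was not tested.

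Start-site windows of 300 bases, 250 before the RefSeq start and 50 from it onward, were available for 59 of the 73 members (RefSeq, GRCm38.p6). They are shown first for the heat-inducible pair and the other Hsp70 and DnaJ members that differed most between the libraries, with the heat shock half-elements in capitals (GAANNTTC, 8 bases that read the same on both strands).

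Hspa1a promoter window, chr17:34972107-34972406, minus strand: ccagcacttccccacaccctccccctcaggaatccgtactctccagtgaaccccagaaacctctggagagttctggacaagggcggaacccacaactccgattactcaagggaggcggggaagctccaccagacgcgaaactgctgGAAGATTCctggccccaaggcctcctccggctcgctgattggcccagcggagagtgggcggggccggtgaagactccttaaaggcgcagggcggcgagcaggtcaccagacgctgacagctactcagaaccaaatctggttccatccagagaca
Hspa1b promoter window, chr17:34959189-34959488, minus strand: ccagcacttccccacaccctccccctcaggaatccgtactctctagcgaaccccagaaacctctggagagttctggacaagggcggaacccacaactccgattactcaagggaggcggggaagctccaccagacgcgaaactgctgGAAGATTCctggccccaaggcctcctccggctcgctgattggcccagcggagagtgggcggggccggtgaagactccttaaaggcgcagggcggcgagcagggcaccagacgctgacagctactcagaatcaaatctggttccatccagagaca
Hspa2 promoter window, chr12:76404120-76404419, plus strand: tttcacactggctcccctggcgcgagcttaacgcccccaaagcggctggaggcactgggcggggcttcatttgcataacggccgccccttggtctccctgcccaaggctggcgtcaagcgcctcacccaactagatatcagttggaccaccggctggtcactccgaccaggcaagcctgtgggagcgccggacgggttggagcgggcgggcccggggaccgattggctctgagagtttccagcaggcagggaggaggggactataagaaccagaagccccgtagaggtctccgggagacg
Dnaja4 second promoter window, chr9:54699309-54699608, plus strand: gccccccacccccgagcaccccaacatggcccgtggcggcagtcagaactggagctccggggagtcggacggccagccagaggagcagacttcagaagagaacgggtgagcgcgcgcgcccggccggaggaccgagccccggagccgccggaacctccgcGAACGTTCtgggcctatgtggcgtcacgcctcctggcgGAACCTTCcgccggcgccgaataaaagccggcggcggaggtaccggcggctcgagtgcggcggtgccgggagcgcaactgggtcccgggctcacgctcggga

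Hspa1a and Hspa1b each held 1 such pair, at the same place 104 bases upstream of the start, and their windows differed at 4 positions counted from the 5' end (C44T, T47C, T249G and C276T, Hspa1a first). Dnaja4 held a pair at 90 and another at 52 bases upstream in the window of 1 of its start sites. Hspa2 held neither GAANNTTC nor the other arrangement TTCNNGAA, which also reads the same on both strands. At least 1 of these 8-base pairs stood in the windows of 15 of 59 members (25.4%) and of 17.0% of the 27025 genes with a window, so a pair alone is common.

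The full element of 3 units was rarer. On either strand, GAANNTTCNNGAA or its reverse complement TTCNNGAANNTTC stood in 4 of 59 members (6.78%: Dnajb6, Hspd1, Hspe1 and Hsph1), against 179 of 27025 genes (0.662%). Each such match also holds both 8-base pairs. The windows of Hspe1 and Hsph1 are shown with it in capitals, and that of Hspa5 with the endoplasmic reticulum stress element, the ATF6-bound motif of unfolded protein response genes.

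Hspe1 promoter window, chr1:55087898-55088197, plus strand: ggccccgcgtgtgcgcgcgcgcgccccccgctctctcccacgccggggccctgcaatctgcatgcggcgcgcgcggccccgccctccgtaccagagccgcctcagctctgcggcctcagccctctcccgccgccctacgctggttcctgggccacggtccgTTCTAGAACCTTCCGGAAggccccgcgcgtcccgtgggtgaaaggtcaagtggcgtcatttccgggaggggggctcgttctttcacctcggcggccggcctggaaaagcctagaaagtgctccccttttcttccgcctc
Hsph1 first promoter window, chr5:149636266-149636565, minus strand: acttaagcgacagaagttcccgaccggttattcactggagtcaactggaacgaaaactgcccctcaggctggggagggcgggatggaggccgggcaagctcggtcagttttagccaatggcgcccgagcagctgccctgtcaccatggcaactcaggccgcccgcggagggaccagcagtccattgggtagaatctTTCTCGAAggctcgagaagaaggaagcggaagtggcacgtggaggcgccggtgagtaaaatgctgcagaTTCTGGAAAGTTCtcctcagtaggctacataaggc
Hspa5 promoter window, chr2:34771840-34772139, plus strand: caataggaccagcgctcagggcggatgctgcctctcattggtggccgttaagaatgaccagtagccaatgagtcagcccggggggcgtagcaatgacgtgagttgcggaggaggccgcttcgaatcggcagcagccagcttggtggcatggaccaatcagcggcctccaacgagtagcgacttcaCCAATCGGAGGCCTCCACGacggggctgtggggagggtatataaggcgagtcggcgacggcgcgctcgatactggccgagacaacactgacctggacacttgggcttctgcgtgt

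Hspd1 and Hspe1 lie head to head on chromosome 1 and overlap by 112 bases, so their windows share the same element, here an overlapping run of matches that starts 89 bases upstream of Hspe1. In the Hsph1 window shown, the full element lay 15 bases downstream of the start, and a further TTCNNGAA, also in capitals, lay 54 bases upstream. Counted from the other RefSeq start of Hsph1, they lay 36 bases downstream and 33 bases upstream. The endoplasmic reticulum stress element, searched on both strands in its classical form, was found in Hspa5, Hsp90b1 and Dnajc3, which are 3 of 59 members (5.08%), against 37 of 27025 genes (0.137%). All 3 encode proteins of the endoplasmic reticulum: the Hsp70 BiP, the Hsp90 Grp94 and the J-domain protein P58IPK. A match is a description of the letters and not a bound site, and genes without a match have only these letters missing from these windows. Hspa8, Hspa9, Hsp90aa1 and Hsp90ab1 were among the 14 members without a window here.

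**Figure D1:**
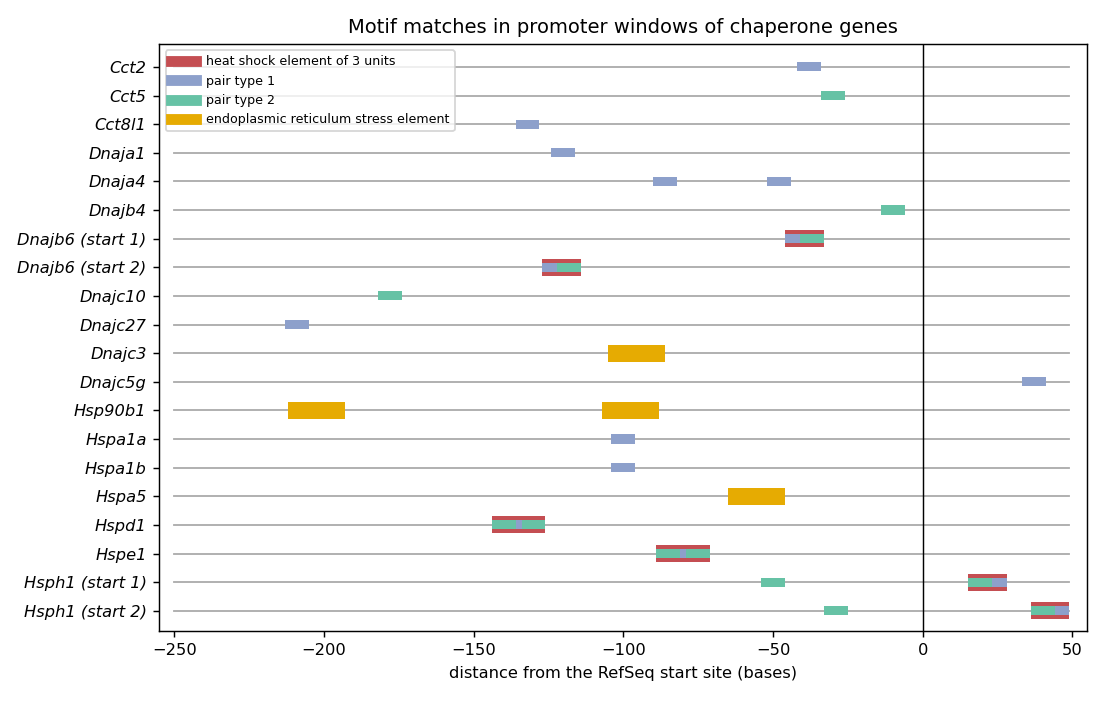
Positions of motif matches in the RefSeq windows of the members that hold any, in bases from the start site (line at 0). Red marks the heat shock element of 3 units, which contains both pair types, blue GAANNTTC (pair type 1), green TTCNNGAA (pair type 2) and yellow the endoplasmic reticulum stress element; Hspa1a and Hspa1b hold 1 pair at the same place.

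Most of the folding machinery was expressed. Of the 73 members, 63 (86.3%) reached at least 1 TPM in each library, against 45.4% of the 22015 nuclear protein-coding genes. Together the members reached 2549 TPM in replicate 2 and 2775 TPM in replicate 1, which is 0.558% and 0.595% of the TPM of nuclear protein-coding genes. Levels were uneven: 4 members averaged at least 100 TPM, 14 at least 50, 31 at least 20 and 44 at least 10. Hsp90ab1 and Hspa8 alone made up 35.5% of the members' TPM in replicate 2 and 36.0% in replicate 1. By family, the Hsp70 and Hsp110 group held 28.9% and 26.9%, Hsp90 20.9% and 22.6%, DnaJ class C 15.5% and 15.3%, TRiC 13.9% and 15.1%, DnaJ class B 9.65% and 9.63%, class A 7.01% and 6.65%, and Hspd1 with Hspe1 4.20% and 3.88% (replicate 2 first in each pair).

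**Figure D2:**
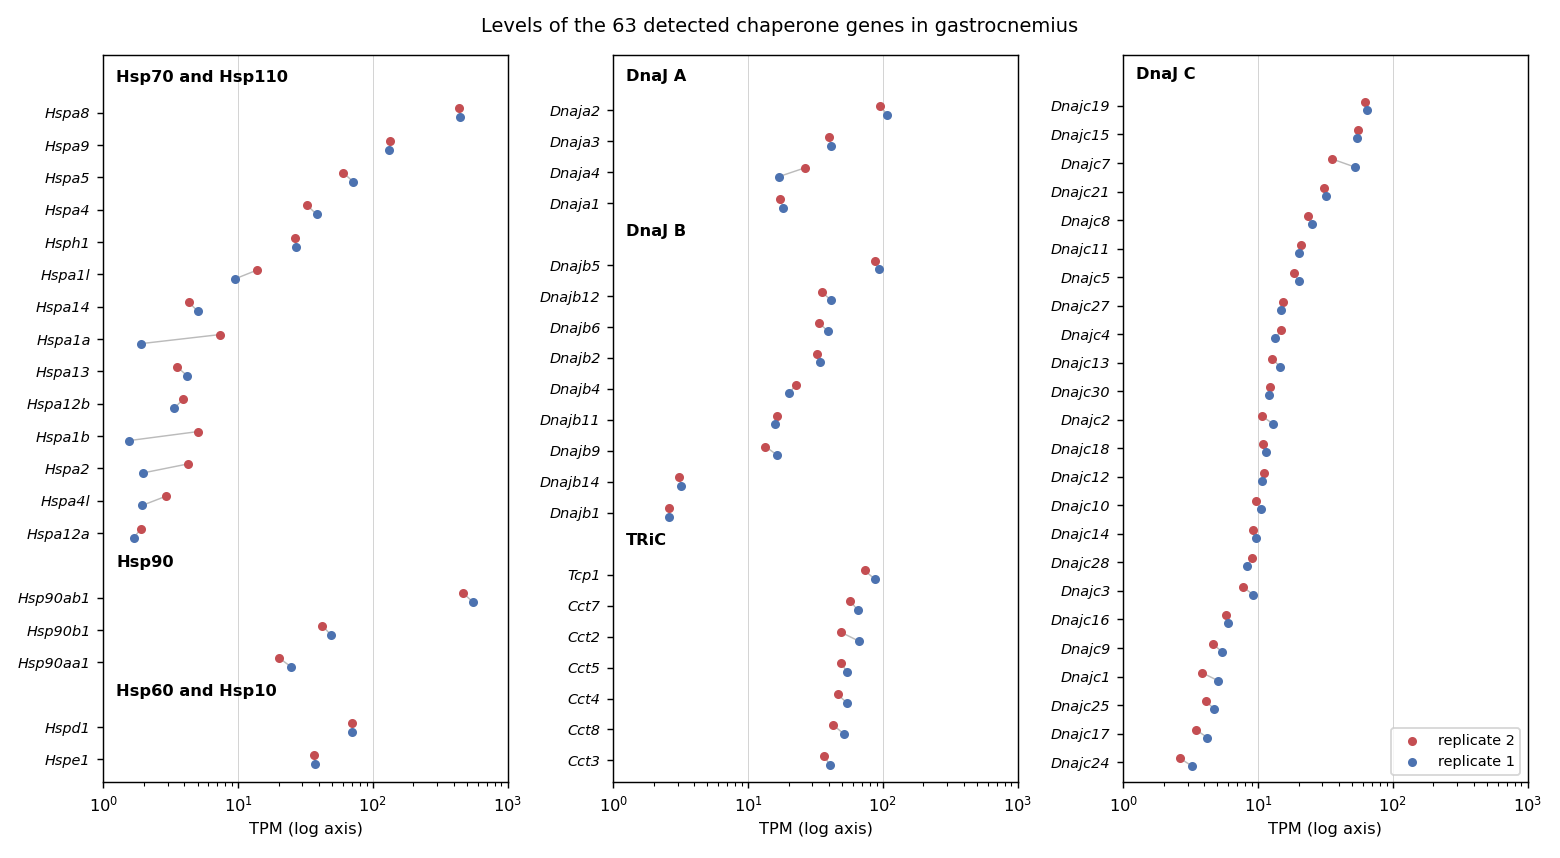
TPM (log axis) of the 63 members at or above 1 TPM in both libraries, by family and in order of mean level; red points are replicate 2 and blue points replicate 1, joined by a line. Hsp90ab1 and Hspa8 stand above all others, and the points of Hspa1a, Hspa1b and Hspa2 lie farthest apart.

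Constitutive forms made up nearly all of the cytosolic Hsp70. Hspa8 (ENSMUSG00000015656.17, chr9:40800984-40810087, plus strand, mm10), the Hsp70 present in unstressed cells, stood at 434 TPM in replicate 2 and 445 TPM in replicate 1. The heat-inducible Hspa1a and Hspa1b summed to 12.3 and 3.44 TPM, so Hspa8 exceeded the pair 35.3-fold in replicate 2 and 129-fold in replicate 1. These are whole-gene levels, and 79.4% and 72.4% of the TPM of Hspa8 was on transcripts annotated protein coding. Next came the organelle forms. Hspa9, the mitochondrial Hsp70 of protein import, was at 135 and 133 TPM, and Hspa5, BiP of the endoplasmic reticulum, at 60.5 and 71.8 TPM. The nucleotide exchange factors of the Hsp110 branch followed, with Hspa4 at 32.6 and 38.2 TPM and Hsph1 at 26.3 and 26.9 TPM, ahead of Hspa4l at 2.91 and 1.95 TPM. In this order, from Hspa8 down to Hsph1, the values of neighbouring genes did not overlap between the libraries, whereas below Hspa1l, from Hspa14 (4.32 and 5.02 TPM) to Hspa4l, every pair of neighbours overlapped. The distant relatives Hspa12b and Hspa12a were near the bottom at 3.91 and 3.35 TPM and at 1.90 and 1.69 TPM, and Hspa13, of the endoplasmic reticulum, at 3.53 and 4.21 TPM.

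Among the Hsp90 genes the constitutive cytosolic form led. Hsp90ab1 (ENSMUSG00000023944.14, chr17:45567775-45573271, minus strand), the most abundant member, was at 470 TPM in replicate 2 and 555 TPM in replicate 1. Hsp90aa1, the stress-inducible cytosolic form, whose zebrafish counterpart is needed for myosin folding in muscle, was at 20.2 and 24.8 TPM. The ratio of Hsp90ab1 to Hsp90aa1 was thus 23.3 and 22.4, and 20.0 and 21.3 with kallisto, the other tool whose values were deposited. Hsp90b1, Grp94 of the endoplasmic reticulum, stood between them at 42.2 and 48.6 TPM. The coding sequences of Hsp90aa1 and Hsp90ab1 are 75.6% identical, and 0.106% of the 31-base words of the first occur in the second.

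The inducible DnaJ partner of Hsp70 was low while other cytosolic DnaJ genes were high. Dnajb1, the classical heat-inducible Hsp40, was at 2.60 and 2.57 TPM, the lowest of the 9 detected class B genes. Dnaja2, a cytosolic partner of Hspa8, led class A at 95.01 and 108.3 TPM, followed by the mitochondrial Dnaja3 at 39.9 and 41.2 TPM, Dnaja4 at 26.3 and 17.0 TPM and Dnaja1 at 17.4 and 18.2 TPM. Dnajb5 led class B at 86.8 TPM in replicate 2 and 94.2 TPM in replicate 1. Below it stood Dnajb12 of the endoplasmic reticulum membrane (35.1 and 41.4 TPM), then Dnajb6 (33.5 and 39.2 TPM), a protein of the sarcomeric Z-disc whose human mutations cause a limb-girdle muscular dystrophy, and Dnajb2 (32.5 and 34.2 TPM). The values of these 3 overlapped between neighbours. Dnajb4, also heat-inducible, followed at 22.6 and 20.3 TPM.

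Class C, the most diverse, was led by genes of the mitochondrial import motor. Dnajc19 and Dnajc15, J-domain subunits of the inner membrane import machinery, were at 61.9 and 64.0 TPM and at 55.3 and 54.3 TPM by the gene table. These levels were mostly on transcripts not annotated as coding, for Dnajc15 by both tools but for Dnajc19 not by kallisto, as given below. Dnajc7, a cochaperone of both Hsp70 and Hsp90, was at 35.5 and 52.2 TPM. Its counts were nearly level, at 1607 and 1552, and its transcript mix differed between the libraries. Dnajc21, of ribosome assembly, followed at 30.7 and 31.9 TPM, then the splicing-related Dnajc8 at 23.5 and 25.2 TPM. Dnajc5, the cysteine string protein of secretory vesicles, was at 18.5 and 20.0 TPM, while Dnajc6, the neuronal clathrin-uncoating auxilin, was at 0.18 and 0.04 TPM with 10 and 6 counts.

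By whole-gene level, 7 TRiC subunits lay closer together in the gene table than by kallisto. For TRiC, a ring of 8 different subunits in equal number, Tcp1 was at 73.3 and 86.9 TPM, Cct7 at 57.5 and 65.0, Cct2 at 48.9 and 66.1, Cct5 at 49.1 and 54.3, Cct4 at 46.1 and 54.1, Cct8 at 43.0 and 51.2 and Cct3 at 36.9 and 40.3 TPM. Highest and lowest of these 7 differed 1.99-fold in replicate 2 and 2.16-fold in replicate 1, and 3.34-fold and 3.75-fold by kallisto. By RSEM, transcripts annotated protein coding held 96.8% and 95.7% of the TPM of Tcp1 and 64.7% and 62.7% of that of Cct3. By kallisto they held 83.6% and 79.9% for Tcp1 and 97.5% and 95.5% for Cct3. The subunit Cct6a is no member by the rule, because its annotated transcripts are a processed transcript and retained introns only; at 34.2 and 41.8 TPM it lay just below the lowest of the 7 in replicate 2 and above Cct3 in replicate 1. Its relative Cct6b, known from testis, was at 0 and 0.08 TPM with 0 and 4 counts. Hspd1, the mitochondrial chaperonin Hsp60, was at 70.3 TPM in replicate 2 and 70.5 TPM in replicate 1, and Hspe1, its Hsp10 lid, at 36.7 and 37.3 TPM. Their ratio was 1.91 and 1.89 by RSEM and 1.39 and 1.37 by kallisto. The genes overlap on opposite strands; the libraries are described as stranded, but whether counting used strand is not given in the sources used here.

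Genes known chiefly from testis mostly had no or very few counts. Of the 11 members so listed, 3 reached at least 1 TPM in each library (Hspa1l, Hspa2 and Hspa4l) and 6 had no count in either. In all, 7 members had no expected count (Dnajb3, Dnajb7, Dnajb8, Dnajb13, Dnajc5b, Dnajc5g and Dnajc22), although kallisto listed Dnajb13 at 0.08 and Dnajc22 at 0.03 TPM in replicate 1. The remaining low members were Dnajc6, Cct6b and Cct8l1, the last with 4 counts in replicate 2 and 1 in replicate 1.

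The libraries agreed closely for most members, and the largest gaps were in the Hsp70 family. Of the 63 tested members, 3 were at least 2-fold higher in replicate 2 (Hspa1a, Hspa1b and Hspa2), against 2.70% of the 12969 genes tested, and 0 were at least 2-fold lower, against 1.94%. In either direction 4.64% of all genes passed 2-fold. Within 1.5-fold lay 57 of 63 members (90.5%), against 86.3% of all tested genes and 88.0% of nuclear protein-coding ones. The median log2 ratio was 0.04 over the members and -0.001 over all genes. The direction of small differences depends on the measure. TPM is scaled to a fixed total with no correction for library composition. By TPM the median log2 ratio was -0.15 over all tested genes and -0.076 over the members. By TPM 19 of the 63 members were higher in replicate 2, as were 4099 of the 12955 tested genes with TPM above 0 in both libraries. By TMM-scaled counts 41 of the 63 members and 6463 of the 12969 tested genes were higher. The 6 members beyond 1.5-fold were all higher in replicate 2, and 5 of them are Hsp70 or Hsp110 genes, the other being Dnaja4. For all tested genes the split by direction was counted at 2-fold only.

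**Figure D3:**
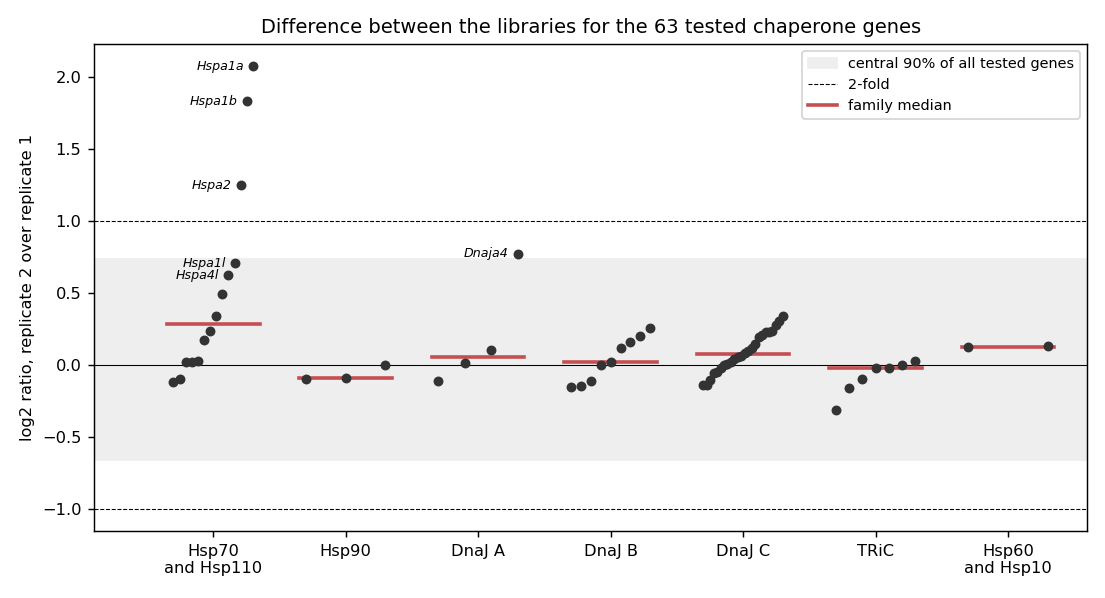
Log2 ratio of replicate 2 over replicate 1 for the 63 tested members by family; red bars are family medians, dashed lines mark 2-fold and the grey band holds the central 90% of the 12969 tested genes. The named genes lie beyond 1.5-fold, and 4 members lie outside the band.

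The heat-inducible pair differed most. Hspa1a (ENSMUSG00000091971.3, chr17:34969190-34972156, minus strand, mm10, a single exon) had 685 counts and 7.29 TPM in replicate 2, against 158 counts and 1.90 TPM in replicate 1, a log2 ratio of 2.07 (4.25-fold, interval 3.57 to 5.08). Its neighbour Hspa1b (ENSMUSG00000090877.3, chr17:34956436-34959238, also minus strand and a single exon) had 444 counts and 5.01 TPM against 121 counts and 1.54 TPM (3.60-fold, 2.93 to 4.43). Their coding sequences are 99.4% identical, with 11 differences, so the split of reads between them is uncertain, and both had fractional counts. Their sum does not depend on that split. It was 1129 counts in replicate 2 and 279 in replicate 1, a 3.97-fold ratio (3.47 to 4.54).

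Hspa1l (chr17:34972703-34979285, plus strand) starts 546 bases from Hspa1a in the opposite direction and is known from testis. It was the more abundant gene of the cluster in both libraries, at 13.9 and 9.44 TPM, a 1.63-fold ratio (1.48 to 1.80). Its coding sequence is 82.9% identical to that of Hspa1a, and 12.1% of the 31-base words of Hspa1a occur in it. Hspa2 (ENSMUSG00000059970.7, chr12:76404176-76406938, plus strand), required for meiosis in male mice, had 337 and 138 counts and 4.24 and 1.96 TPM, a 2.39-fold ratio whose interval (1.96 to 2.94) reaches below 2-fold. Only 0.0681% of the 31-base words of Hspa1a occur in it. Hspa4l, of the Hsp110 branch, had 341 and 216 counts, a 1.55-fold ratio (1.30 to 1.84).

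**Figure D4:**
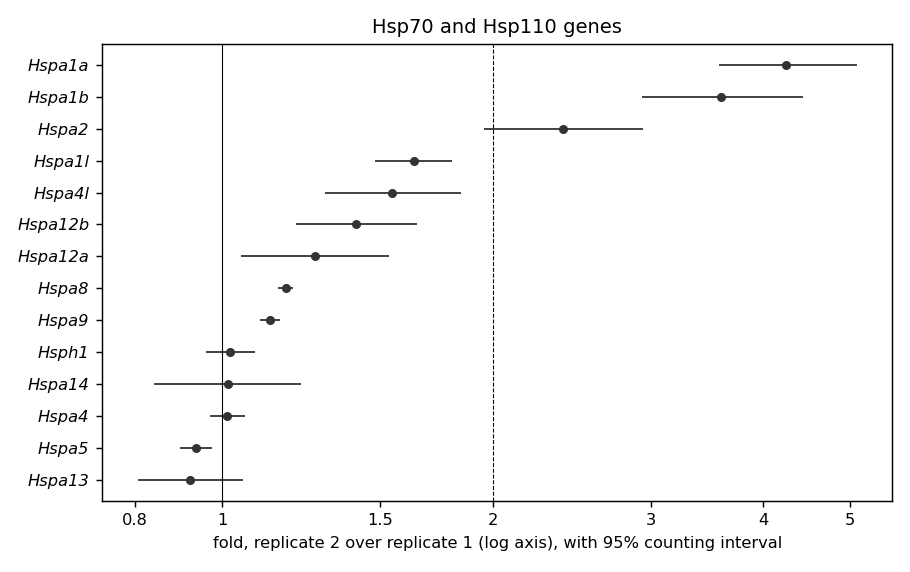
Fold of replicate 2 over replicate 1 (log axis) for the 14 Hsp70 and Hsp110 genes, with 95% counting intervals; the solid line marks 1 and the dashed line 2-fold. Hspa1a and Hspa1b lie beyond 2-fold with their whole intervals, while Hspa4, Hspa14, Hsph1 and Hspa13 have intervals that include 1.

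The abundant Hsp70 genes differed less. By TMM-scaled counts Hspa8 was at 1.18-fold (1.16 to 1.20), Hspa9 at 1.13-fold (1.10 to 1.16) and Hspa5 at 0.935-fold (0.897 to 0.974). No direction follows for Hspa8 and Hspa9: the TPM of Hspa8 was lower in replicate 2 by both tools, and under spike-in totals the log2 ratios were 0.01 for Hspa8 and -0.05 for Hspa9. Over the Hsp70 and Hsp110 family, 12 of 14 lay above 0 with a median of 0.29, against 6463 of the 12969 tested genes. By TPM 8 of the 14 were higher in replicate 2, with a median log2 ratio of 0.094, and 7 by kallisto TPM. Over all tested genes 4099 of 12955 were higher by TPM. Under spike-in scaling, which lowers the median of all genes to -0.22, 8 of 14 lay above 0, and 12 of 14 lay above that all-gene median.

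Outside the Hsp70 family, Dnaja4 (ENSMUSG00000032285.15, chr9:54698873-54716315, plus strand), a heat-inducible class A gene, was the farthest. It had 2308 counts in replicate 2 and 1322 in replicate 1, a log2 ratio of 0.77 (1.71-fold, 1.598 to 1.831). The farthest in class C was Dnajc11, a mitochondrial protein linked to the cristae-organising MICOS complex, at 1.26-fold (1.16 to 1.37). On the lower side the farthest member was Cct2, with 2871 and 3484 counts and a log2 ratio of -0.31 (0.807-fold, 0.768 to 0.848). The other tested TRiC subunits lay between 0.895-fold (Cct4) and 1.02-fold (Cct3).

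On a list of 12 HSF1 targets, Hspa1a and Hspa1b passed 2-fold. Within 1.5-fold lay 9 of 12, against 86.3% of all tested genes, and the median was 0.14. These 9 include Hspa8 (1.18-fold) and Hsp90ab1 (0.94-fold), given above as constitutive forms. The count and the median therefore do not describe inducible genes alone. The remaining gene of the 12, Hspa4l, was at 1.55-fold as given above, and Dnajb4 was at 1.19-fold (1.11 to 1.28). Dnaja4, at 1.71-fold, is heat-inducible but not on that list. Dnajb1 had 246 counts in replicate 2 and 216 in replicate 1 (1.12-fold, 0.926 to 1.35). Hsph1 was at 1.02-fold (0.960 to 1.09) and Hsp90aa1 at 0.937-fold (0.869 to 1.01), and both intervals include 1. Hspd1 and Hspe1, which carry the full element, were at 1.09-fold each. Of the 4 tested genes of a heat shock factor list, Hsf1 was at 22.8 and 25.6 TPM (log2 ratio -0.09, 0.941-fold, 0.873 to 1.01). Hsf2 was at 7.91 and 11.6 TPM (-0.41) and Hsf4 at 4.29 and 6.22 TPM (-0.38). Hsbp1, which binds HSF1, had 65.4 and 65.9 TPM and a log2 ratio of 0.13 (1.09-fold, 1.02 to 1.16). No direction follows for Hsbp1: its TPM was lower in replicate 2 by both tools, and under spike-in totals 0 of the 4 lay above 0.

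The members of mitochondria had small ratios of one sign by TMM-scaled counts and level TPM. All 10 of them had log2 ratios above 0, from 0.11 for Dnaja3 to 0.34 for Dnajc11 with a median of 0.18. Above 0 lay 41 of the 63 tested members and 6463 of the 12969 tested genes. Under spike-in scaling 4 of the 10 were above 0, though all 10 still lay above the all-gene median. By TPM 6 of the 10 were higher in replicate 2, and 4 by kallisto; their summed TPM was 456.0 in replicate 2 and 454.1 in replicate 1. Of 7 mitochondrial protease and stress genes, 6 also lay above 0 (median 0.21), among them Lonp1 at 28.4 and 26.6 TPM. Under spike-in scaling 2 of these 7 lay above 0, and 6 lay above the all-gene median. The oxidative phosphorylation genes given above differed by more. Of the 13 tested members of the endoplasmic reticulum, by contrast, 4 lay above 0, with a median of -0.02 and a range from -0.15 for Dnajb14 to 0.21 for Dnajc25. Of the other genes of the unfolded protein response, 7 of 17 lay above 0, with a median of -0.05. Their range was wider, from -0.38 for Xbp1 to 0.64 for Sdf2l1, the latter from 68 and 42 counts. Atf4 was at -0.30. By TPM 1 of the 13 members of the endoplasmic reticulum was higher in replicate 2, against 4099 of 12955 tested genes. In the wider list the disulfide isomerase P4hb was at 82.2 and 118 TPM. The difference between these groups of members has no test in this design.

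Helpers of the same machines were abundant and close between the libraries. All 17 genes of the Hsp70 helper list were detected and 0 passed 2-fold. Bag6 was at 101.9 and 112.4 TPM, Bag1 at 104 and 98.1 TPM, and Bag3, the partner of Hsp70 in chaperone-assisted autophagy at the Z-disc, at 56.6 and 51.6 TPM. All 19 Hsp90 cochaperones were detected, led by Smyd1 (142 and 149 TPM), a muscle methyltransferase that works with the myosin chaperone Unc45b (82.8 and 75.6 TPM). The exception to their close values was Fkbp5, a glucocorticoid-inducible cochaperone, at 40.6 TPM in replicate 2 and 79.9 TPM in replicate 1 (0.567-fold, 0.545 to 0.591). All 14 prefoldin and TRiC helper genes were detected and lay within 1.5-fold, led by Pfdn5 at 116 and 132 TPM.

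Several abundant members had no dominant transcript, which bears on how a gene level reads as protein-coding RNA. Of the 31 members with a mean of at least 20 TPM, 17 had a top transcript under 70% of the gene's TPM, and in 9 of these kallisto named the same top transcript. In 3 the top transcript by RSEM was not annotated as coding. For Dnajc15 (ENSMUSG00000022013.4, chr14:77820681-77875125, minus strand), a processed transcript of 419 bases held 61.2% of TPM in replicate 2 and 61.3% in replicate 1, and transcripts annotated protein coding held 4.16% and 3.74%. By kallisto the coding share was 1.64% and 1.76%, so both tools put it under 5%. For Cct7, a transcript annotated for nonsense-mediated decay held 44.9% and 50.8%, and 54.4% and 55.2% by kallisto. For Dnajc19 the tools did not agree: RSEM gave a retained-intron transcript 59.3% and 66.8%, and kallisto gave it 0 in both libraries. The coding share of Dnajc19 was 40.7% and 33.2% by RSEM and 100% in both libraries by kallisto. A retained-intron transcript of 507 bases held 44.0% and 40.4% of the TPM of Dnaja2 by RSEM. By kallisto it was the top transcript, at 56.1% and 51.5%. For Cct8, kallisto put a transcript annotated for nonsense-mediated decay on top, at 44.6% and 49.1%, against 35.4% and 40.0% by RSEM. The coding transcript of Dnaja2 alone stood at 53.2 and 64.5 TPM by RSEM, above the whole-gene level of Dnaja3 in both libraries.

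**Figure D5:**
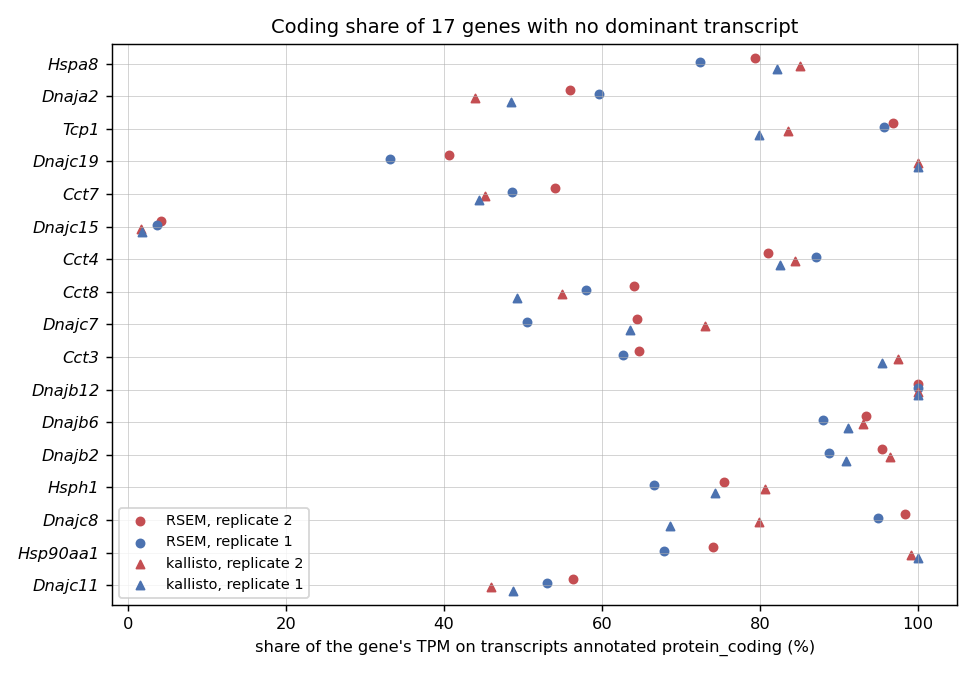
Share of each gene's TPM on transcripts annotated protein coding, for the 17 members at or above 20 TPM with no transcript at 70%, in order of mean level; circles are RSEM and triangles kallisto, red is replicate 2 and blue replicate 1. Dnajc15 lies under 5% by both tools, and Dnajc19 differs most between them.

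The coding share of Hspa8 was 79.4% and 72.4% by RSEM and 85.1% and 82.2% by kallisto. For Hspa8 the tools differed on the leading coding transcript, with one of 2019 bases at 38.4% and 44.3% by RSEM but at 0.134% and 0.112% by kallisto, which gave another of 2394 bases 77.3% and 68.8%. Dnajb6 was steadier. Its long transcript, of 2918 bases, held 69.3% and 61.6% by RSEM and 68.6% and 63.8% by kallisto, and a shorter one of 1605 bases held 17.7% and 17.0% by RSEM. In Dnajc7 the longest coding transcript, of 2330 bases, held 45.5% in replicate 2 and 24.8% in replicate 1, and kallisto gave 40.9% and 31.9%.

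Levels also moved with the tool as a whole. Over the 49 members at or above 5 TPM, kallisto values were a median of 1.52 times those of RSEM, against 1.34 times over 6628 nuclear protein-coding genes. A ratio of at least 2 was found for 7 members (Dnajc11 at 2.29, Dnajc15, Dnajc16, Dnajb2, Dnajc8, Dnajc13 and Dnajc18), against 6.05% of those genes with a 2-fold difference. RSEM gave few counts to copies elsewhere: 16 processed pseudogenes bear members' names, 4 of them had counts, and together they held 43.9 counts in replicate 2 and 42.2 in replicate 1, led by Hspd1-ps3. Hspa9-ps1 was at 0.05 and 0.04 TPM by RSEM but at 1.37 and 1.51 TPM by kallisto. Fractional counts, which mark reads that RSEM divided between genes, occurred in 17 members, Hspa8 and Tcp1 among them, and how many reads were shared was not measured.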

How the data were processed

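Levels were read from gastrocnemius total RNA libraries of 1 group, replicates 2 and 1 per the labels. The deposited gene table holds expected counts and TPM with the column names of RSEM, per the file headers; the authors also deposited estimated counts and TPM per transcript from kallisto. Build mm10 and GENCODE M21 are named in notes deposited with each library. The aligner, tool versions and strand settings were not given in the sources used here. Kallisto TPM were summed per gene. Expected counts were rounded, edgeR 4.0.16 gave TMM factors and, with a prior count of 2, log2 CPM over 12969 genes, and size factors of DESeq2 1.42.0 served as one alternative. Spike-in rows (0.45% and 0.42% of counts) and tRNA rows stayed out. No molecular identifiers are described, so intervals cover counting error only. Members and lists were chosen with earlier results of these data known. Named members were the 5 highest per family, those past 2-fold, without counts, differing 2-fold between tools or lacking a dominant transcript, with Hspa1a and Hspa1b; other genes were the 3 highest of each list. Genes outside this rule (such as Hspa1l, Hspa4l, Dnajb1 and Lonp1) were chosen after their values were seen. The ratio step was tested on simulated data.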

Additional observations from a re-analysis of the deposited data

How the results depend on the processing

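The number of detected members was 63 by posterior mean TPM, by kallisto, at a minimum of 0.5 TPM and without either replicate, and 48 at a minimum of 5 TPM. Their summed level was 3819 ± 347 TPM by kallisto and 5765 ± 259 TPM after rescaling to nuclear protein-coding genes, against 2662 ± 160 TPM; without a replicate it was 2549 to 2775 TPM. The median log2 ratio was -0.18 under spike-in totals, where the median of all genes was -0.22, and 0.02 to 0.06 under the other planned settings. As a ratio of deposited TPM, an alternative chosen after seeing the data, it was -0.076 (-0.15 over all genes). Under spike-in totals 16 of 63 members lay above 0, against 41. The same 3 members passed 2-fold under each scaling, a filter of 10 counts, a prior count of 0.5 and kallisto counts; with a filter of 500 counts Hspa2 was not tested, and with no filter Cct6b passed on the lower side from 0 and 4 counts. Of 38 named members, 35 moved in level with kallisto by more than the spread between libraries. Ratios need both libraries, so none was left out there. No paired analysis was possible because there is 1 group. Depth limits members such as Dnajc6 and Cct8l1, whose few counts carry no ratio.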
